A study of Mus musculus with 6 samples.

Results

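Extracellular pyrophosphate blocks the growth of calcium phosphate crystals, and the proteins that make it, export it and break it down set how readily a matrix mineralizes. Members of the nucleotide pyrophosphatase/phosphodiesterase (NPP) family act on nucleotides or phospholipids outside the cell, and Enpp1 is the member known for producing pyrophosphate from ATP. Ank carries pyrophosphate, or the ATP it is made from, out of the cell, the ectoenzyme Nt5e turns AMP into adenosine and phosphate, the Slc20 transporters bring phosphate into the cell, and matrix Gla protein (Mgp) restrains calcification of cartilage and arteries. Loss of Enpp1, Ank or Mgp leads to mineral deposits in soft tissue, joints or vessels, and in people loss of Nt5e calcifies arteries and joint capsules.

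These 8 genes (Enpp1, Enpp2, Enpp3, Ank, Mgp, Nt5e, Slc20a1 and Slc20a2) were found by the gene name of the non-control spots of the array. Those spots carried 35080 names after the names were updated as described below. The 8 genes were measured by 11 probes, each described apart, of which 10 passed the filter on low signal. The samples were total RNA of the intermediate interzone and of the outer interzone from mice at embryonic day 15.5, with 3 samples per layer and 1 embryo per sample. The interzone is the condensed band of cells where a synovial joint will form. No strain, genotype or treatment was given for either layer. Each sample was hybridised as Cy3-labelled cRNA to a one-colour Agilent array. Levels are log2 processed signal relative to that array's 75th percentile, so a level of 0 is the brightness of that percentile, and differences are outer minus intermediate on this log2 scale. Brightness also depends on the probe, so no level is set against that of another probe, and of a gene's 2 probes the brighter and the dimmer are only names.

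The 75th percentile of signal ranged from 144 to 344 on the intermediate arrays and from 47.4 to 290 (replicate 2) on the outer arrays. Outer replicate 1 was the dimmest array, where 35.6% of spots exceeded background clearly, and the other 5 arrays had 45.1% to 53.4%. The 3 intermediate arrays and outer replicate 1 shared a slide, and outer replicates 2 and 3 were on another. Among markers, 8 of 8 chondrocyte genes were higher in outer interzone (median difference 3.17, summarised level 0.05 to 1.07 on the intermediate and 3.65 to 4.0 on the outer arrays), led by Matn1 (6.0), Matn3 (4.91) and Col9a1 (4.28). Matn1 and Matn3 were above background on 1 of 3 intermediate arrays, and after normexp correction they differed by 2.35 and 1.65, below Col9a1. The macrophage list had 7 of 8 genes lower in outer interzone (median -3.39, level 1.89 to 2.74 against -1.59 to 0.10), led by Cx3cr1 (-3.93), Mrc1 (-3.83) and C1qa (-3.78). The endothelial list had 5 of 7 lower (median -2.40, level 1.71 to 2.21 against -0.19 to 0.29), led by Emcn (-2.93), Tek (-2.92) and Tie1 (-2.67). The 2 that did not pass were Cd34 (-1.35) and Kdr, which went the other way (0.82, limma adjusted p = 0.238). Tek was above background on 1 of 3 outer arrays and differed by -1.22 after normexp correction. Of 5 pericyte and smooth muscle genes tested, Rgs5 (-2.37) and Tagln (-2.25) were lower and Cspg4 (1.27) was higher. Of 3 interzone genes, Erg was higher (0.95). With each array scaled to its median, Erg, Cspg4 and the chondrocyte gene Acan did not pass (limma adjusted p = 0.238, 0.130 and 0.0855). Cd34 and the macrophage gene Ptprc did pass on that scale (limma adjusted p = 0.0219 and 0.0172). No gene passed among 3 tendon (brightest Scx, -0.17), 4 skeletal muscle (Myh3, -0.74), 3 erythroid (Hba-a1, -1.49) and 2 keratinocyte genes tested (Trp63, 0.69). No hypertrophic chondrocyte, osteoblast or Schwann cell marker passed the filter. The osteoblast marker Ibsp was nevertheless bright in replicate 3 of both layers (3.51 in intermediate and 2.51 in outer interzone). In bulk samples, fewer cells of a type and less RNA per cell cannot be told apart, and the part that differing cell content has in the results was not tested.

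None of the 10 tested member probes passed adjusted p 0.05 in limma's moderated test, where 832 of 23891 probes (3.48%) did over the whole array. At an unadjusted p under 0.05 there were 3 member probes, those of Nt5e, Enpp3 and Ank, against 20.4% of all tested probes. The layers did not overlap for Nt5e, where all outer samples were above all intermediate ones, as for 14.8% of all probes, and for Enpp3, where all outer samples were below, as for 11.4%. The member probes had 4 differences above 0 and 6 below, with a median of -0.10 against 0.09 over all tested probes. The median size of their differences, sign aside, was 0.31 against 0.29. With each array scaled to its median in place of its 75th percentile, the median difference of all probes moved to -0.31, and the 832 calls (317 higher and 515 lower) became 1361 (183 higher and 1178 lower). Differences near 0 therefore have no settled direction, and those of Enpp2 and of the brighter Slc20a2 probe turned negative on that scale.

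**Figure D1:**
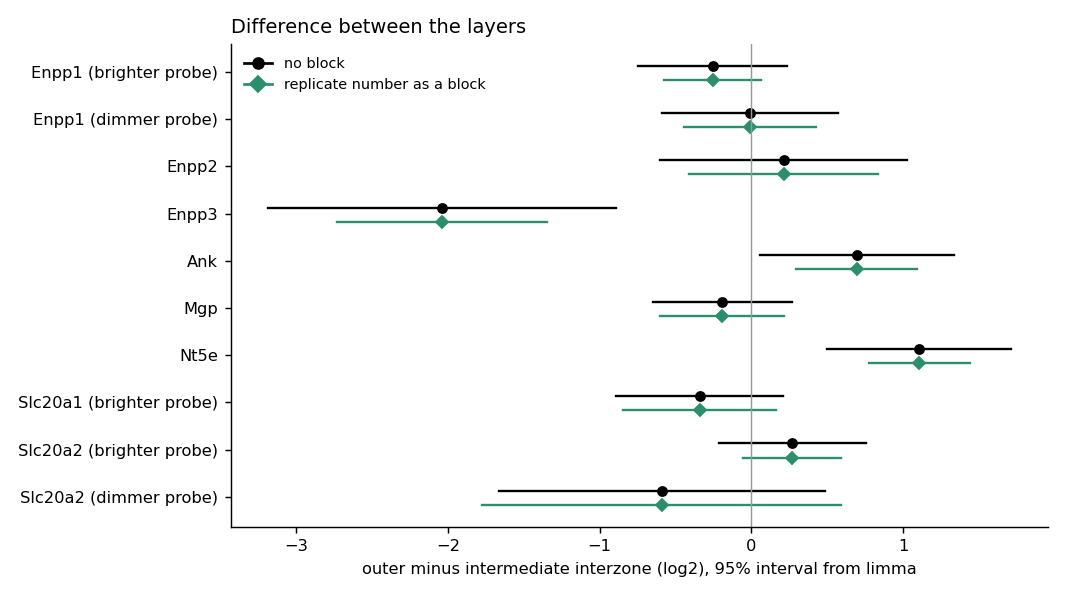
Outer minus intermediate difference (log2, horizontal axis) of each of the 10 tested member probes, with its 95% interval from limma, without a block (black circles) and with replicate number blocked (green diamonds). Without the block, the interval of Nt5e lies above 0 (0.50 to 1.71), that of Enpp3 below 0 (-3.19 to -0.89) and that of Ank just above 0 (0.05 to 1.33), and the other 7 cross 0.

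Enpp1, the pyrophosphate-producing enzyme, was measured by a pair of probes at different places of its locus on chromosome 10 (build mm9, minus strand). Because the probes are separate readings of the gene, the last 30 bases of each 60-base probe are shown, in lower case and 5′ to 3′, with the sequence AATAAA (the polyadenylation signal) set in capitals wherever it occurs in a member probe. Searched on the printed strand alone, it lies in these 30 bases of 8.16% of 55681 probes on the array.
Enpp1 brighter probe, chr10:24358048-24358107: tctgtaagtaatggttctaggaaagtgctg
Enpp1 dimmer probe, chr10:24361540-24361599: atagatccttttgaaagagtcttatatttg
Neither holds AATAAA in this stretch.

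At the brighter Enpp1 probe the level was 3.25, 2.84 and 3.16 in intermediate replicates 1, 2 and 3 and 3.02, 2.56 and 2.91 in the outer replicates. The ranges overlapped, while each outer sample lay below the intermediate sample of the same number, by 0.23, 0.28 and 0.25. The mean was 3.08 ± 0.22 in intermediate and 2.83 ± 0.24 in outer interzone (SD, n = 3), a difference of -0.25 (SE 0.21, 95% interval -0.75 to 0.24, limma adjusted p = 0.535). On the median scale the difference was -0.65 (95% interval -1.19 to -0.10, limma adjusted p = 0.161), so its size depended on the scaling. The dimmer probe gave -0.22, -0.95 and -0.24 against -0.47, -0.62 and -0.33, a difference of -0.01 (SE 0.25, limma adjusted p = 0.990). Its outer values all fell inside the intermediate range.

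Ank, the exporter that supplies pyrophosphate outside the cell, is on the plus strand of chromosome 15, where its probe covers 27523965 to 27524024. Its level was 0.05, -0.22 and 0.23 in the intermediate samples and 0.83, 0.20 and 1.12 in the outer samples. Outer replicate 2 lay just under the highest intermediate sample, so the layers overlapped, yet within each replicate number the outer value was higher, by 0.78, 0.42 and 0.88. The difference of 0.69 (SE 0.27, 95% interval 0.05 to 1.33, a 1.62-fold ratio) had an unadjusted p of 0.0372 and a limma adjusted p of 0.213. With the replicate number as a block the adjusted p was 0.0621. Scaling to the array median left a difference of 0.30 (limma adjusted p = 0.541).

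Nt5e had the largest positive difference of the members. Its probe lies on chromosome 9 from 88266616 to 88266675 on the plus strand, and the last 30 bases are shown since the clearest outer excess among the members rests on this probe alone.
Nt5e probe, chr9:88266616-88266675: tttgttgcagtgaaacaatgccttcagttc
The level was 1.68, 2.43 and 1.91 in the intermediate samples and 2.85, 3.42 and 3.07 in the outer samples. Every outer sample was above every intermediate sample, and the probe was well above background on all 6 arrays. The means were 2.01 ± 0.38 and 3.11 ± 0.28 (SD, n = 3), a difference of 1.11 (SE 0.26, 95% interval 0.50 to 1.71), or 2.15-fold more signal in outer interzone. The unadjusted p was 0.00339 and the limma adjusted p was 0.0682.

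Nt5e was among the most even members between replicate numbers, with outer minus intermediate differences of 1.17, 0.99 and 1.16 (SD 0.10). With the replicate number as a block it passed, at a limma adjusted p of 0.0316, in a fit that called 7.22% of all tested probes. It also passed after normexp background correction (1.02, limma adjusted p = 0.0235), where 4.56% of probes were called. With the slide as a block the difference was 0.85 (limma adjusted p = 0.179) and within the shared slide 0.85 (limma adjusted p = 0.199), both resting on the single outer sample of that slide. On the median scale it was 0.72 (limma adjusted p = 0.238).

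**Figure D2:**
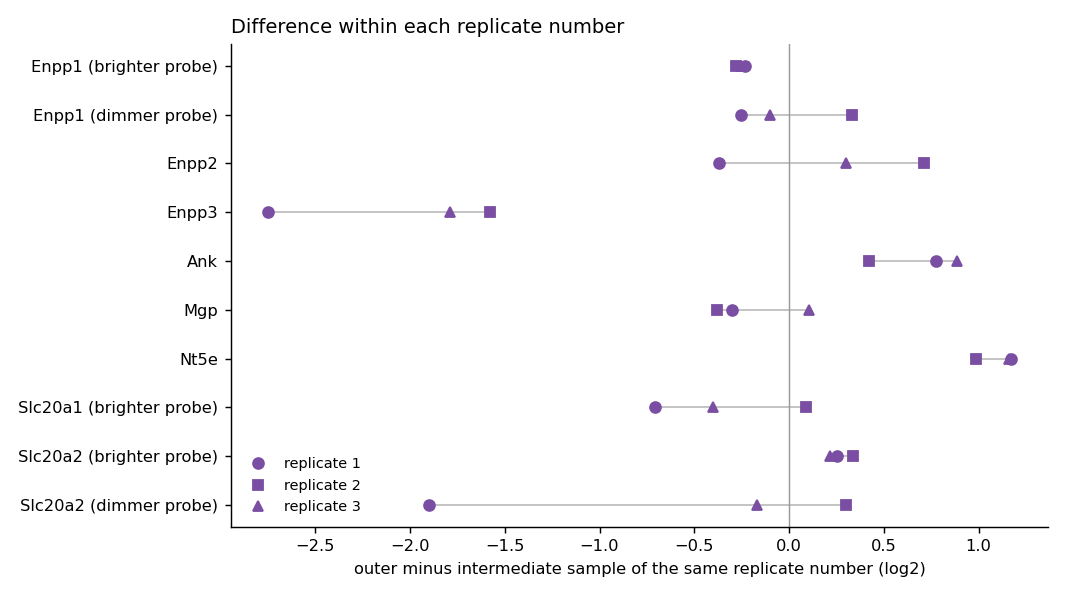
Outer minus intermediate difference (log2, horizontal axis) within each replicate number for each tested member probe, with 1 symbol shape per number and a grey line over their range. The points of Nt5e lie between 0.99 and 1.17 and those of the brighter Enpp1 probe between -0.28 and -0.23, while those of Enpp2, Slc20a1, Mgp and the dimmer probes of Enpp1 and Slc20a2 lie on both sides of 0.

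Enpp3, an NPP family ectoenzyme known from activated basophils and mast cells, went the other way. Its probe is on chromosome 10, not far from those of Enpp1, and its last 30 bases are shown because the largest member difference rests on it.
Enpp3 probe, chr10:24493672-24493731: ggatgtataaagccatttgacaaaatgggg
The level was -1.29, -0.99 and -0.41 in the intermediate samples and -4.04, -2.57 and -2.20 in the outer samples. All outer samples were below all intermediate ones, and in outer replicate 1 the probe was not well above background, so that value is near the floor of the dimmest array. The means were -0.90 ± 0.45 and -2.94 ± 0.97 (SD, n = 3), a difference of -2.04 (SE 0.49, 95% interval -3.19 to -0.89), which is 4.11-fold lower in outer interzone. The probe was tested through its intermediate signal, and this size includes the floor value: it was 2.80-fold without outer replicate 1 and 1.93-fold after normexp correction. The unadjusted p was 0.00395 and the limma adjusted p was 0.0740.

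Within replicate numbers the Enpp3 difference was -2.75, -1.58 and -1.79, lower in outer interzone in 3 of 3. It passed when the replicate number was blocked (limma adjusted p = 0.0345), on the median scale (-2.43, limma adjusted p = 0.0308, where 5.70% of probes were called) and after normexp correction, at a smaller size (-0.95, limma adjusted p = 0.0396). With the slide as a block it was -3.14 (limma adjusted p = 0.0101, where 6.51% of probes were called) and within the shared slide -3.14 (limma adjusted p = 0.0103), but the outer value behind both is outer replicate 1. Without outer replicate 1 the difference was -1.49 (limma adjusted p = 0.0564). Enpp3 was lower together with most of the macrophage and endothelial markers given above, and the part of those cells in its difference was not tested.

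**Figure D3:**
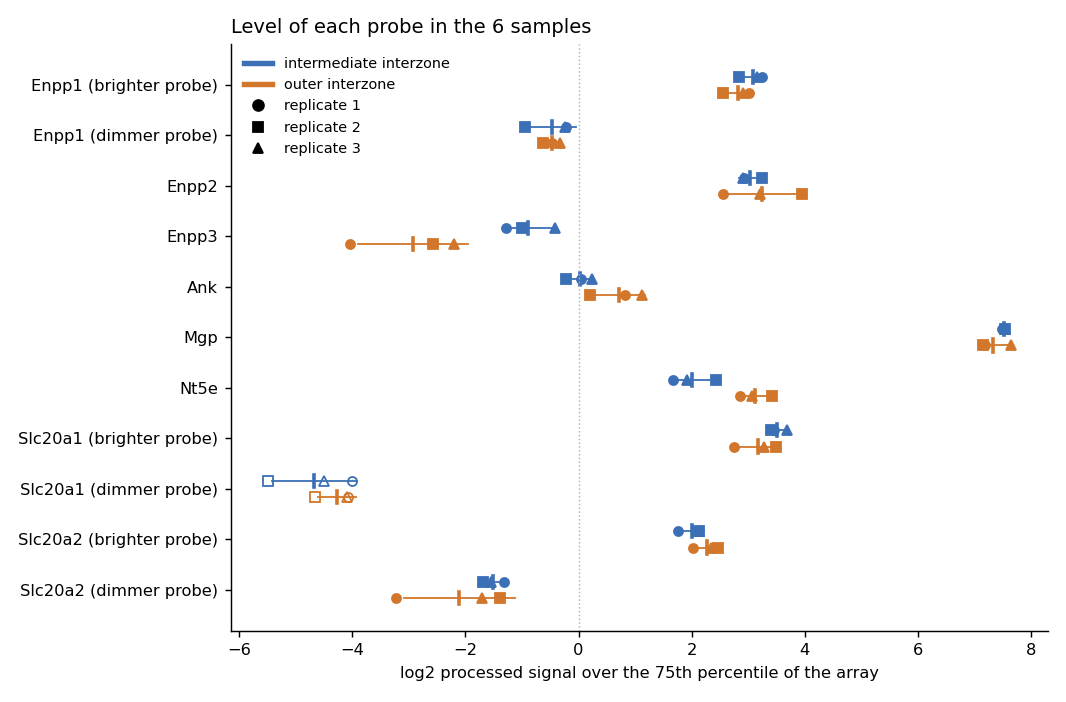
Level of each of the 11 member probes (log2 signal relative to the array's 75th percentile, horizontal axis) in the 3 intermediate (blue) and 3 outer (orange) samples, with a vertical tick at the group mean, a line over 1 SD either side, and open symbols for the probe that was not tested. The layers separate for Nt5e, with outer samples between 2.85 and 3.42 and intermediate samples between 1.68 and 2.43, and for Enpp3, in the opposite direction.

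Enpp2 (autotaxin) is a secreted family member that makes the lipid mediator lysophosphatidic acid and is not known as a pyrophosphate source. Its probe, on chromosome 15 from 54670921 to 54670980 on the minus strand, read 2.93, 3.24 and 2.91 in the intermediate samples and 2.56, 3.95 and 3.21 in the outer samples. The outer samples held both the lowest and the highest value. The difference was 0.21 (SE 0.35, 95% interval -0.60 to 1.03, limma adjusted p = 0.768). Of 7 tested genes of lysophosphatidic acid signalling and turnover, the receptor gene Lpar4 rose in outer interzone, from 2.57 ± 0.17 to 3.79 ± 0.10 (SD, n = 3), a difference of 1.23 (SE 0.18, 2.34-fold, limma adjusted p = 0.0184). On the median scale Lpar4 did not pass (limma adjusted p = 0.0758). Of 2 tested genes among 4 other NPP family members, neither passed, and the brighter, Enpp4, differed by -0.28 (limma adjusted p = 0.548).

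Slc20a1 and Slc20a2, sodium-coupled importers of inorganic phosphate, had 2 probes each. They are shown as pairs because the probes of a gene differ in what they could measure.
Slc20a1 brighter probe, chr2:129037286-129037345: cttaactgAATAAAaagcctacagttttta
Slc20a1 dimmer probe, chr2:129029990-129030049: ttcagaaggctgcaggctagtgtatgctga
Slc20a2 brighter probe, chr8:23679961-23680020: ttatattgacatacattttcacggtacttc
Slc20a2 dimmer probe, chr8:23679094-23679153: gtgtacctagaataggtagcatttatctcc
The brighter Slc20a1 probe is the only member probe with AATAAA in its last 30 bases. All 4 probes are on the plus strand of build mm9.

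The brighter Slc20a1 probe read 3.47, 3.40 and 3.69 in the intermediate samples and 2.76, 3.49 and 3.29 in the outer samples. Outer replicate 1 was the lowest of the 6, and outer replicate 2 lay within the intermediate range. The difference was -0.34 (SE 0.23, 95% interval -0.89 to 0.21, limma adjusted p = 0.456). On the median scale it was -0.73 (-1.46 to -0.0074, limma adjusted p = 0.223) and with the slide as a block -0.76 (-1.37 to -0.15, limma adjusted p = 0.118). Without outer replicate 1 it was -0.13. The dimmer Slc20a1 probe was well above background on intermediate replicate 3 alone, so it was not tested. Its levels were -4.01, -5.50 and -4.51 in the intermediate and -4.07, -4.66 and -4.10 in the outer samples.

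The brighter Slc20a2 probe read 1.77, 2.13 and 2.13 in the intermediate samples and 2.02, 2.47 and 2.35 in the outer samples. The layers overlapped through outer replicate 1, and each outer sample was above the intermediate sample of its number, by 0.25, 0.34 and 0.22. The difference was 0.27 (SE 0.20, 95% interval -0.21 to 0.75, limma adjusted p = 0.501), and -0.12 on the median scale. The dimmer probe read -1.32, -1.69 and -1.54 against -3.22, -1.39 and -1.72, a difference of -0.59 (SE 0.46, limma adjusted p = 0.509). Its low outer value was that of replicate 1, where it was not well above background, and without that sample the difference was -0.03. With the slide as a block, which rests on that sample, it was -1.70 (limma adjusted p = 0.0214), and within the shared slide -1.70 (limma adjusted p = 0.0244). The 2 Slc20a2 probes thus had differences of opposite sign, and neither passed without the slide term.

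Mgp, the vitamin K-dependent inhibitor of calcification, had the brightest member probe, on chromosome 6 from 136821125 to 136821184 on the minus strand. It was not saturated on any array. The level was 7.50, 7.54 and 7.55 in the intermediate samples and 7.20, 7.16 and 7.66 in the outer samples. The intermediate samples spanned a narrow band (SD 0.03), and the outer samples lay on both sides of it (SD 0.28). The difference was -0.19 (SE 0.20, 95% interval -0.65 to 0.27, limma adjusted p = 0.624), and -0.58 on the median scale (limma adjusted p = 0.239). Over the 6 arrays the probes most correlated with Mgp among genes outside the members were those of Mtpn (r = 0.991), Aqp11 (0.976) and Gm10325 (0.972). These are descriptions of 6 arrays that share their scaling, chosen as the highest of 18325 probes.

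Among 9 tested genes of other Gla proteins and the vitamin K cycle, Ucma passed, a Gla-rich protein gene of cartilage that also restrains calcification. It was 6.50 higher in outer interzone (SE 0.85, limma adjusted p = 0.0155), and 1 of 3 intermediate arrays had it above background, so the size depends on the background level there. After normexp correction the difference was 3.79. It rose together with the 8 chondrocyte markers, and their part in its difference was not tested.

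The balance between members was also read as the log2 ratio of a pair of probes on the same array, which does not depend on how that array was scaled. There were 5 such pairs, each gene by its brighter tested probe, tested by an exact two-sided permutation test of 20 arrangements, which cannot go below p = 0.1, and adjusted over the 5. The layers did not overlap in 4 of 5 pairs, against 28.7% of all pairs of tested probes. The pairs are not independent, since several share Enpp1, and Mgp over Ucma holds a gene outside the members. With a dimmer probe, Enpp1 over Nt5e and Slc20a1 over Slc20a2 overlapped. The count is therefore a description and does not measure an excess. A pair of Enpp1 with Alpl could not be formed, since Alpl was not tested.

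Enpp1 over Ank, the producer over the exporter, was 3.20, 3.05 and 2.93 in the intermediate samples and 2.19, 2.35 and 1.79 in the outer samples. Every outer ratio was lower, by 0.95 in the mean (exact permutation p = 0.1, adjusted p = 0.125). The ratio of Enpp1 over Nt5e differed by -1.36, from 1.08 ± 0.60 to -0.29 ± 0.52 (SD, n = 3, exact permutation p = 0.1), again with no overlap. Slc20a1 over Slc20a2 was 1.70, 1.27 and 1.56 against 0.74, 1.02 and 0.94, a difference of -0.61 (exact permutation p = 0.1) with the brighter Slc20a2 probe. With the dimmer Slc20a2 probe the ratio turned to a difference of 0.25 and the layers overlapped (exact permutation p = 0.8). Mgp over Ucma differed by -6.69 (exact permutation p = 0.1), and Ucma was near background in intermediate interzone. Enpp1 over Enpp2 overlapped between the layers, with a difference of -0.47 (exact permutation p = 0.7). With the dimmer Enpp1 probe the difference of Enpp1 over Ank was -0.70, still without overlap, and that of Enpp1 over Nt5e was -1.11 with overlap (exact permutation p = 0.1 and 0.2). No ratio passed the test, and a ratio does not tell which of its genes differed.

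**Figure D4:**
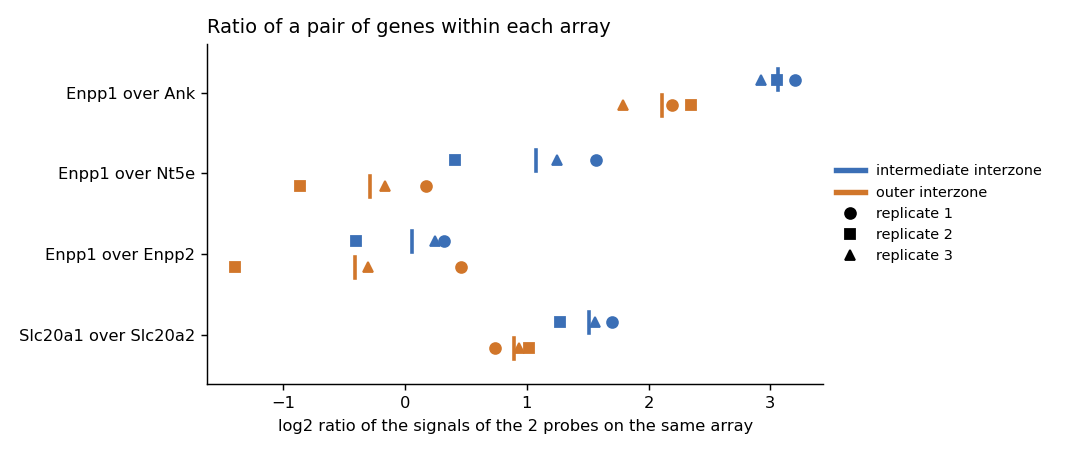
Within-array log2 ratio (horizontal axis) of 4 pairs of member probes in the 3 intermediate (blue) and 3 outer (orange) samples, with a vertical tick at the group mean. The layers separate for Enpp1 over Ank (2.93 to 3.20 against 1.79 to 2.35), Enpp1 over Nt5e and Slc20a1 over Slc20a2 (1.27 to 1.70 against 0.74 to 1.02), and overlap for Enpp1 over Enpp2.

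Around the members, 6 lists of pathway genes were counted, each gene by its brightest probe. Of 89 genes, 52 were tested and 5 passed, 2 higher and 3 lower in outer interzone, where over the array 1.44% of genes passed as higher and 2.28% as lower. Besides Lpar4 and Ucma these were Entpd1, P2ry6 and Slc37a2. Entpd1 and P2ry6 were the calls among 17 tested nucleotide and adenosine genes. The median difference of the 17 was -0.72 against 0.09 for all probes. Many of the 17, such as Adora2a, Adora2b, P2rx7 and P2ry12, were tested through their intermediate signal and were not above background on every outer array. The median therefore includes values near the floor. Entpd1, an ectoenzyme that removes phosphates from ATP and ADP and so supplies the AMP that Nt5e uses, differed by -2.73 (SE 0.44, limma adjusted p = 0.0244) and was well above background on 1 of 3 outer arrays, so its size is set near the floor there (-1.22 after normexp correction). P2ry6, a receptor for UDP, differed by -3.11 (SE 0.63, limma adjusted p = 0.0489) and was above background on 2 of 3 (-2.16 after normexp correction). Both are also expressed by macrophages or endothelium, most of whose markers were lower too, and the part of those cells was not tested.

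Of 12 tested genes of phosphate and pyrophosphate handling, the sugar phosphate transporter gene Slc37a2 passed, with a difference of -1.99 (SE 0.39, limma adjusted p = 0.0449), and was above background on 1 of 3 outer arrays, so its size too is set near the floor (-0.76 after normexp correction). With the replicate number as a block its adjusted p in limma was 0.0596. None of 5 tested mineral deposition genes passed, and the brightest, the membrane-binding annexin Anxa2, differed by -0.42 (limma adjusted p = 0.303).

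**Figure D5:**
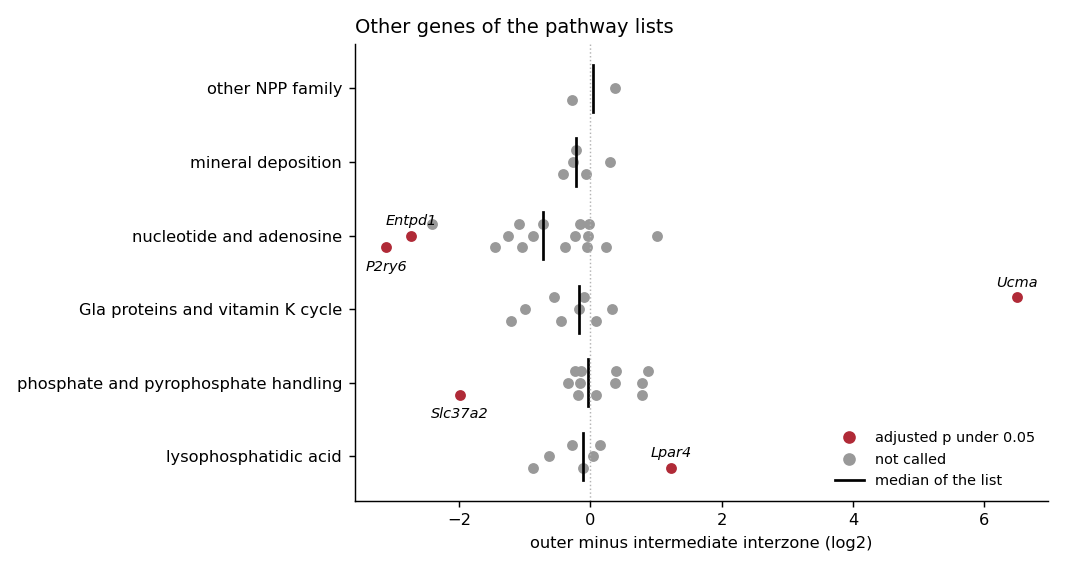
Outer minus intermediate difference (log2, horizontal axis) of each tested gene of the 6 pathway lists, with red points for genes that passed limma's adjusted p of 0.05, grey points for the rest and a black tick at each list's median. The 5 that passed are Ucma (6.50) and Lpar4 (1.23) above 0, and P2ry6 (-3.11), Entpd1 (-2.73) and Slc37a2 (-1.99) below 0.

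The other 13 of 18 mineral deposition genes did not pass the filter, and 3 of them, Runx2, Bglap and Col10a1, were above background on no array. The values below are those of each gene's brightest probe. Alpl, the phosphatase that destroys pyrophosphate and so opposes Enpp1 and Ank, read -4.41, -5.66 and -0.91 in the intermediate and -3.94, -5.44 and -1.29 in the outer samples. It was above background on replicate 3 of both layers and on no other array. Ibsp, a bone matrix sialoprotein, read -5.79, -6.67 and 3.51 against -4.08, -5.02 and 2.51, bright in replicate 3 of both layers. The brightest probes of Smpd3, Bglap2 and Phex were likewise above background on replicate 3 of both layers alone. For 5 of these 13 genes the brightest probe was thus above background on exactly the 2 arrays of replicate number 3. Another Ibsp probe was above background on 3 arrays. Of all 55672 probes, 0.271% were above background on exactly those 2 arrays. That share includes the tested probes, which cannot show the pattern because of the filter. This pattern was looked at after the values had been seen. The 10 tested member probes could not show it, since they passed the filter, so its absence there tells nothing about the members. The untested dimmer Slc20a1 probe was above background on intermediate replicate 3 alone. What replicate 3 had in common in both layers was not tested.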

How the data were processed

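Total RNA of 3 intermediate and 3 outer interzone samples was amplified, labelled with Cy3 and hybridised, per the labels' protocols. The way the layers were isolated is not given in the labels or file headers. The deposited scanner files hold, per the file headers (Agilent Feature Extraction 10.7.3.1, build mm9), a processed signal intensity per spot with background subtracted, and flags for background and outliers. The authors' deposited table holds linear intensity values that equal the processed signal over each array's median, and its direction is not stated. Partek 6.11.0321 is named in the submitters' processing notes for an unstated step.

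Spots of a probe were averaged after outlier spots were left out, and the log2 signal, less the 75th percentile of its array, was fitted with limma 3.58.1 in R 4.3.3 (lmFit, eBayes, two-sided, Benjamini-Hochberg over 23891 probes, threshold 0.05). Testing required a signal well above background on all 3 arrays of either layer. The fit was tested on simulated data with known changes. Dimmer arrays measure low signals less precisely, and 3 arrays per layer limit every difference.

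The labels number the replicates without stating that a number marks 1 embryo in both layers. Same-numbered samples correlated at 0.537, 0.478 and 0.358 after group means were removed, and samples of different numbers at no more than 0.094. Removing the group means makes the deviations within a layer cancel out, so high same-number values force low values elsewhere. Each sample still correlated most with the sample of its own number in the other layer, so the numbers may pair the samples. Because the labels do not state this, the fit without the block was kept as the main analysis. The value with the block stands beside each member it changes. The permutation test of the ratios also took the samples as unpaired. Slide was tried as a block and as a subset.

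The members and lists were chosen with earlier results of these data known. Named genes were all member probes, up to 3 called genes with the largest differences per list (the brightest tested gene where none passed), and the 3 probes most correlated with the brightest member, since no member passed. Positions and gene names of probes are those of the files, the names updated through a RefSeq table for names alone (26762 of 28390 probes with an accession matched), and transcript annotation of the probes was not used here.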

Additional observations from a re-analysis of the deposited data

How the results depend on the processing

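Of the 10 tested member probes, 0 passed in the main analysis and in every analysis that left out 1 sample. With quantile normalization, without the filter and with quantile normalization plus the replicate block (added after seeing the data) the count was also 0. With all 6 arrays required it was 0 of the 8 probes left, without Enpp3 and the dimmer Slc20a2 probe. It was 1 with median scaling and with the authors' values, and 2 with normexp, with a block for replicate number or slide, and within the shared slide. With quantile normalization plus the replicate block, Nt5e had a limma adjusted p of 0.0729 and Enpp3 of 0.115. Over all probes, the 832 calls became 494 with quantile normalization, 1361 with median scaling and with the authors' values, 0 without the filter (5734 of 55672 at an unadjusted p under 0.05 in limma), 529 with all 6 arrays required, 1556 with the slide block, 1725 with the replicate block, 1776 within the shared slide, 45 with quantile normalization plus the replicate block, and 75 to 1244 when 1 sample was left out. The lowest, 75, was without intermediate replicate 3, followed by 110 without outer replicate 3, 165 without intermediate replicate 1 and 438 without intermediate replicate 2. Of the pathway genes, 5 passed, against 2 with quantile normalization, 11 with median scaling, the authors' values, normexp or the shared slide, 0 without the filter and with quantile normalization plus the replicate block, 1 with all 6 arrays, 8 with the slide block, 10 with the replicate block, and 0 to 7 when 1 sample was left out. Of the members, the sign turned for Enpp2 (-0.18 with median scaling and the authors' values, -0.46 with the slide block and within the shared slide, -0.14 to 0.55 when 1 sample was left out), for the brighter Slc20a2 probe (-0.12 with median scaling and the authors' values), for the dimmer Enpp1 probe (-0.25 to 0.12 when 1 sample was left out) for the Slc20a1 over Slc20a2 ratio (0.25 with the dimmer Slc20a2 probe, added after seeing the data) and for the Enpp1 over Enpp2 ratio (-0.90 to 0.022 when 1 sample was left out). When 1 sample was left out, Nt5e ranged from 0.94 to 1.32 (limma adjusted p from 0.0673 to 0.224), Enpp3 from -2.41 to -1.49 and Ank from 0.49 to 0.95. Leaving out the filter adds probes to the fit as well as to the adjustment, and the unadjusted limma p of Nt5e went from 0.00339 to 0.0138. Leaving out a sample removes data, yet the calls rose to 1244 without outer replicate 2. The cause of these changes was not tested. Probes near background, Enpp3 and the dimmer Slc20a2 probe, are limited by the dim outer replicate 1 array.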
